A study of Mus musculus with 6 samples.

Results

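The mitochondrial ribosomal proteins were represented by 76 genes of the 18193 genes measured on the arrays, 47 named as proteins of the large subunit (Mrpl) and 29 named as proteins of the small subunit (Mrps). A gene was taken as a member when its platform symbol was Mrpl or Mrps followed by a number, and it was read from the brightest of its probe sets annotated to 1 gene. Membership follows from the symbol alone, while the gene family itself was chosen with earlier results of these data known. Levels are log2 signals after robust multi-array average (RMA) processing, and every difference is the mean of the CD73+ arrays minus the mean of the CD73- arrays on that log2 scale, with its standard error (SE).

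The mitochondrial ribosome translates the few messenger RNAs made from the mitochondrial genome, all of which code for subunits of the respiratory chain and ATP synthase. Its RNAs are made inside the organelle, while its proteins are encoded in the nucleus, made on cytoplasmic ribosomes and imported. Some of these proteins descend from bacterial ribosomal proteins and others occur only in mitochondria, where they replace or extend parts of the bacterial particle. Mesenchymal stem cells in culture are generally described as glycolytic, with mitochondrial activity that rises upon differentiation.

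Both groups were adipose derived mesenchymal stem cells (AD-MSCs) from groin fat of adult C57BL/6 mice, without any genetic change or drug treatment. CD73, the ecto-5'-nucleotidase encoded by Nt5e, was the basis of the flow cytometry sort into CD73+ AD-MSCs and CD73- AD-MSCs, each with 3 arrays. The sorted cells were grown in low sugar DMEM with fetal bovine serum and used at the fifth passage, so that the arrays describe cultured descendants of the sorted cells. Whether the 3 arrays of a group stem from separate animals or cultures is not given in the sources used here, so the p-values cover no more than the spread among these arrays, whose number limits the precision.

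The RefSeq promoter table (build GRCm38.p6) held 67 of the 76 members, and 7 of these promoters are shown because they carry, or lack, letters that DNA-binding proteins of nuclear genes for mitochondria are known to recognise. Each sequence gives the 100 bases before the annotated start in the direction of transcription, and capitals mark CGGAAG (the core bound by ETS family factors such as GABP), CATGCGC (part of the NRF1 site) or CACGTG (the E-box bound by MYC with MAX), on either strand. Mrpl1, Mrpl9, Mrps22, Mrps18a and Mrps9 were among the members with the largest lower signals in CD73+ AD-MSCs and held ETS letters in these bases. Mrpl24 was another member with one of the largest lower signals, and it had no match. Mrpl20 was the member with the smallest difference and held ETS and E-box letters. The promoters shown are a selection, and their number with or without ETS letters does not represent the largest falls. Among the other largest falls described below, Mrpl35, Mrpl37 and Mrps30 held no ETS letters in the whole window of the table. Mrps31 held them there. The windows were Mrpl1 at chr5:96210015-96210114 (plus strand), Mrpl9 at chr3:94443236-94443335 (plus strand), Mrps22 at chr9:98601680-98601779 (minus strand), Mrps18a at chr17:46110904-46111003 (plus strand), Mrps9 at chr1:42851133-42851232 (plus strand), Mrpl24 at chr3:87919444-87919543 (plus strand) and Mrpl20 at chr4:155802778-155802877 (plus strand).
Mrpl1: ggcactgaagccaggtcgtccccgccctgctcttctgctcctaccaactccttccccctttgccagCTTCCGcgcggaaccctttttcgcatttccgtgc
Mrpl9: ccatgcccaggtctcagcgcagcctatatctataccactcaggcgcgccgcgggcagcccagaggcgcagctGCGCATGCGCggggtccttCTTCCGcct
Mrps22: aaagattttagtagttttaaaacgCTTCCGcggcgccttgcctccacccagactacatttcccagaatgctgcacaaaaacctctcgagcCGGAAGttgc
Mrps18a: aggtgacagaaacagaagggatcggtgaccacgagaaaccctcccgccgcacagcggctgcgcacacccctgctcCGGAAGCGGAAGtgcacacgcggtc
Mrps9: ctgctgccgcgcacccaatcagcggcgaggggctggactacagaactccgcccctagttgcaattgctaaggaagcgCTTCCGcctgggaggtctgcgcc
Mrpl24: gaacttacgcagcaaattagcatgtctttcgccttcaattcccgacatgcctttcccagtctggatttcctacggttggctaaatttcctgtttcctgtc
Mrpl20: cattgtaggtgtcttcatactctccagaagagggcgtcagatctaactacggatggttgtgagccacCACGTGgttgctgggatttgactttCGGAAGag

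In the whole window of the table, 250 bases before to 50 bases after the start, CGGAAG or its complement CTTCCG stood in 38 of 67 members (56.7%), against 5075 of 27025 genes (18.8%). The 8 letters ATGGCGGC recognised by YY1, or GCCGCCAT, stood in 11 members (16.4%) against 2.6% of genes. CATGCGC or GCGCATG stood in 8 members (11.9%) against 4.41% of genes, and the palindrome CACGTG stood in 5 members (7.46%) against 8.09%. No searched motif contains another, and in Mrpl9 the forward and reverse NRF1 letters overlap. The ETS letters stood in 11 of the 23 members in the table with a lower signal in CD73+ AD-MSCs (47.8%), in 25 of the 42 members that did not pass the test (59.5%) and in both members that rose. The E-box letters stood in 3 of the lower members and in 2 of those that did not pass, and the differences between these shares were not tested. These matches describe letters in a window and say nothing about binding.

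The 6 arrays were alike in overall signal, with array medians from 5.28 to 5.37 and correlations over all probe sets of 0.997 to 0.998 within a group and of 0.993 between groups. Nt5e was measured at 7.84, 7.60 and 7.74 in the CD73+ arrays and at 7.29, 6.39 and 6.84 in the CD73- arrays, so the groups did not overlap and stood in the direction of their labels. Of 9 further mesenchymal stromal markers, 5 rose in CD73+ AD-MSCs, and their mean level per array was 10.68 to 10.69 against 10.26 to 10.30 in CD73- AD-MSCs. The mean of 10 blood and immune markers was 5.06 to 5.08 against 4.85 to 4.93, with Cd14 and Csf1r higher, while the defining leukocyte gene Ptprc stood near the floor of the array at 2.99 to 3.34 on all 6 arrays. None of 7 endothelial or 3 Schwann markers passed the test, and of 7 adipocyte, 7 smooth muscle and 6 skeletal muscle markers, Pparg and Myf5 fell and Cnn1 and Acta1 rose. The part of cell composition in the results on mitochondrial ribosomal proteins was not tested, and in such bulk RNA fewer cells of a type and less RNA per cell cannot be told apart. The poly-A RNAs that are spiked into each sample before labelling stood 0.93 log2 units lower in the CD73+ arrays, and every direction below refers to the values as deposited, where the median gene differed by -0.018.

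In CD73+ AD-MSCs 25 mitochondrial ribosomal protein genes fell and 2 rose relative to CD73- AD-MSCs, and 49 did not pass the test. In the large subunit 13 of 47 genes fell and none rose, with a median difference of -0.078. In the small subunit 12 of 29 genes fell and Mrps12 and Mrps21 rose, with a median difference of -0.19. At an unadjusted p under 0.05 in limma, 4 large subunit genes were higher and 20 lower, and 4 small subunit genes were higher and 15 lower. No share over all genes is given at this unadjusted threshold, and the shares below are for the adjusted one. After quantile normalization or cyclic loess of the deposited values, 3 or 4 large subunit genes rose beside 13 that fell, and 2 small subunit genes rose beside 11 that fell. Of all 18193 genes, 1959 were higher and 2484 lower after quantile normalization, and 2015 and 2355 after cyclic loess. Scaling to the poly-A controls turned each of the 25 lower genes to higher, since it raised every difference alike by 0.93. Over all genes, 12.6% were called lower and 10.1% higher by limma with Benjamini-Hochberg adjustment at the threshold of 0.05. Among the 6526 genes within the level range of the members (7.39 to 11.11), 24.4% were called lower and 17.4% higher, with a median difference of -0.037. The share of lower genes was 27.7% in the large subunit and 41.4% in the small subunit, and the difference between the subunits was not tested.

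**Figure D1:**
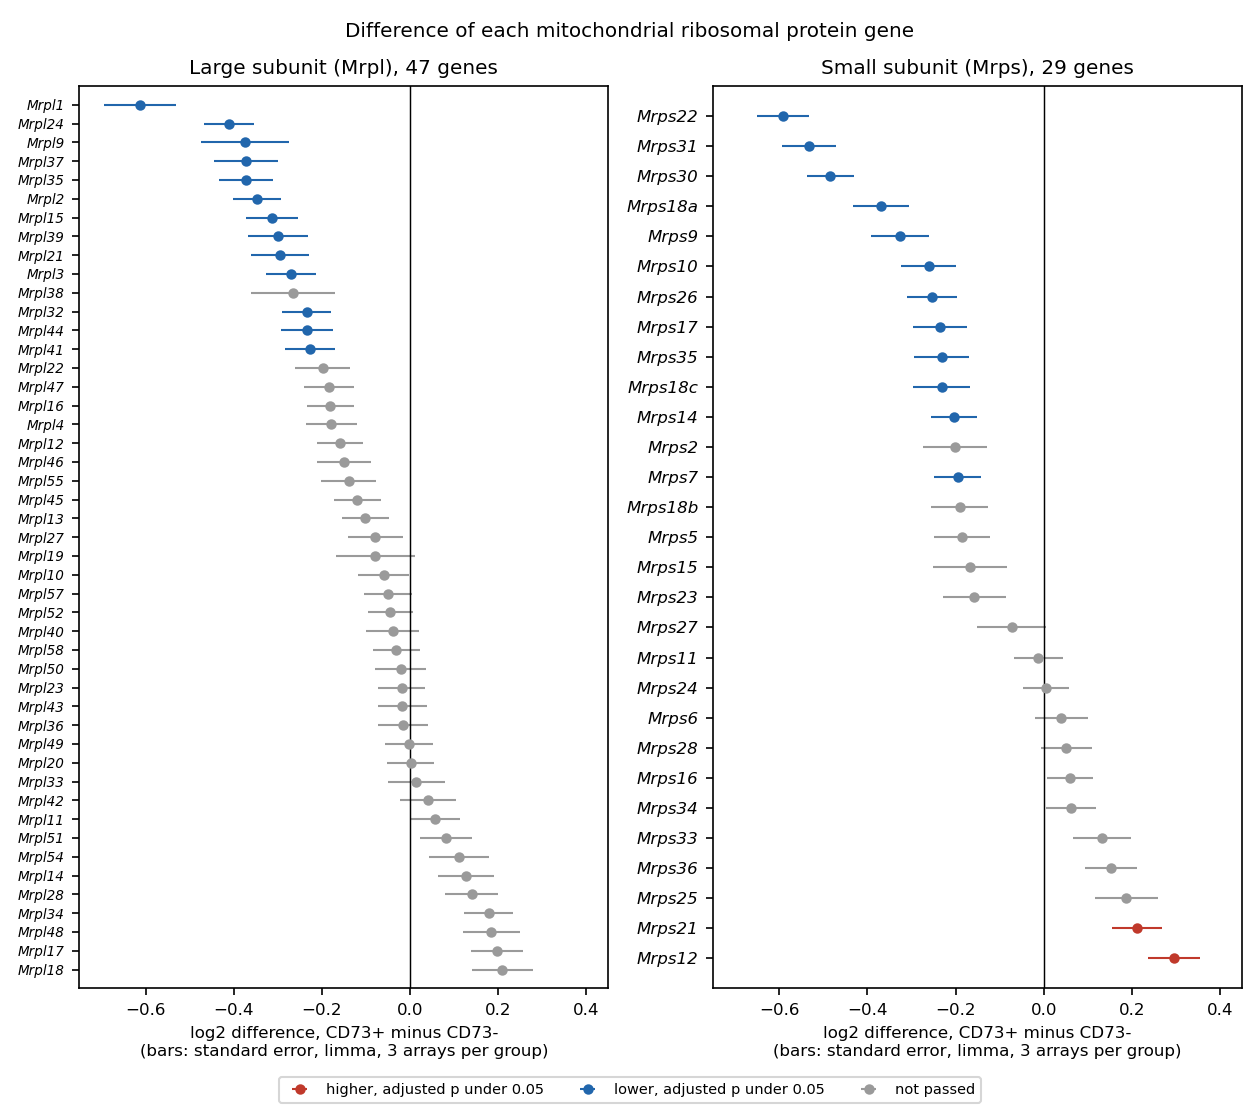
Log2 difference of each of the 47 large subunit genes (left) and 29 small subunit genes (right), CD73+ minus CD73- AD-MSCs, with the standard error from limma over 3 arrays per group as horizontal bars. Blue points are lower and red points higher at an adjusted p under 0.05 on the deposited scale, and grey points did not pass; the values run from -0.61 (Mrpl1) to 0.30 (Mrps12), and scaling to the poly-A controls would turn the blue points to higher.

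The adjusted p-values of the 27 genes that passed (limma) ran from 0.000722 to 0.0456, and in none of them did the groups overlap. Of the members that did not pass, 7 lower and 4 higher ones had an adjusted p between 0.05 and 0.1. Without regard to any test, the 3 CD73+ arrays lay below all 3 CD73- arrays for 24 large subunit and 16 small subunit genes and above them for 5 and 6 genes, where 22.7% of all genes lay below and 18.1% above. These were 51.1% of the large and 55.2% of the small subunit genes below, against 39.6% of the genes in the level range of the members, of which 29.1% lay above. The count of lower large subunit genes was 6 without CD73- replicate 2, 7 without CD73+ replicate 1 or 2, 8 without CD73- replicate 1 and 11 without either of the remaining arrays. The count of lower small subunit genes was 4 without CD73+ replicate 1, 5 without CD73+ replicate 2 or CD73- replicate 1 or 2, 6 without CD73+ replicate 3 and 12 without CD73- replicate 3. The calls of Mrpl1, Mrpl2, Mrpl15, Mrpl24, Mrpl35, Mrpl37, Mrps18a, Mrps22, Mrps30 and Mrps31 held whichever array was left out.

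The mean level of the large subunit genes was 9.33, 9.32 and 9.34 on the CD73+ arrays and 9.46, 9.47 and 9.40 on the CD73- arrays. The mean level of the small subunit genes was 9.17, 9.16 and 9.15 on the CD73+ arrays and 9.32, 9.31 and 9.23 on the CD73- arrays. For both subunits every CD73+ array lay below every CD73- array on the deposited scale. CD73- replicate 3 lay closest to the CD73+ arrays, and it was the lowest array of its group for 58 of the 76 members (76.3%), as it was for 60.5% of all genes in the same level range. The median within-group standard deviation (SD) was 0.050 over the members and 0.088 over all genes. The median level was 9.33 over the members and 6.37 over all genes, and the SD of genes at the members' level was not compared.

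**Figure D2:**
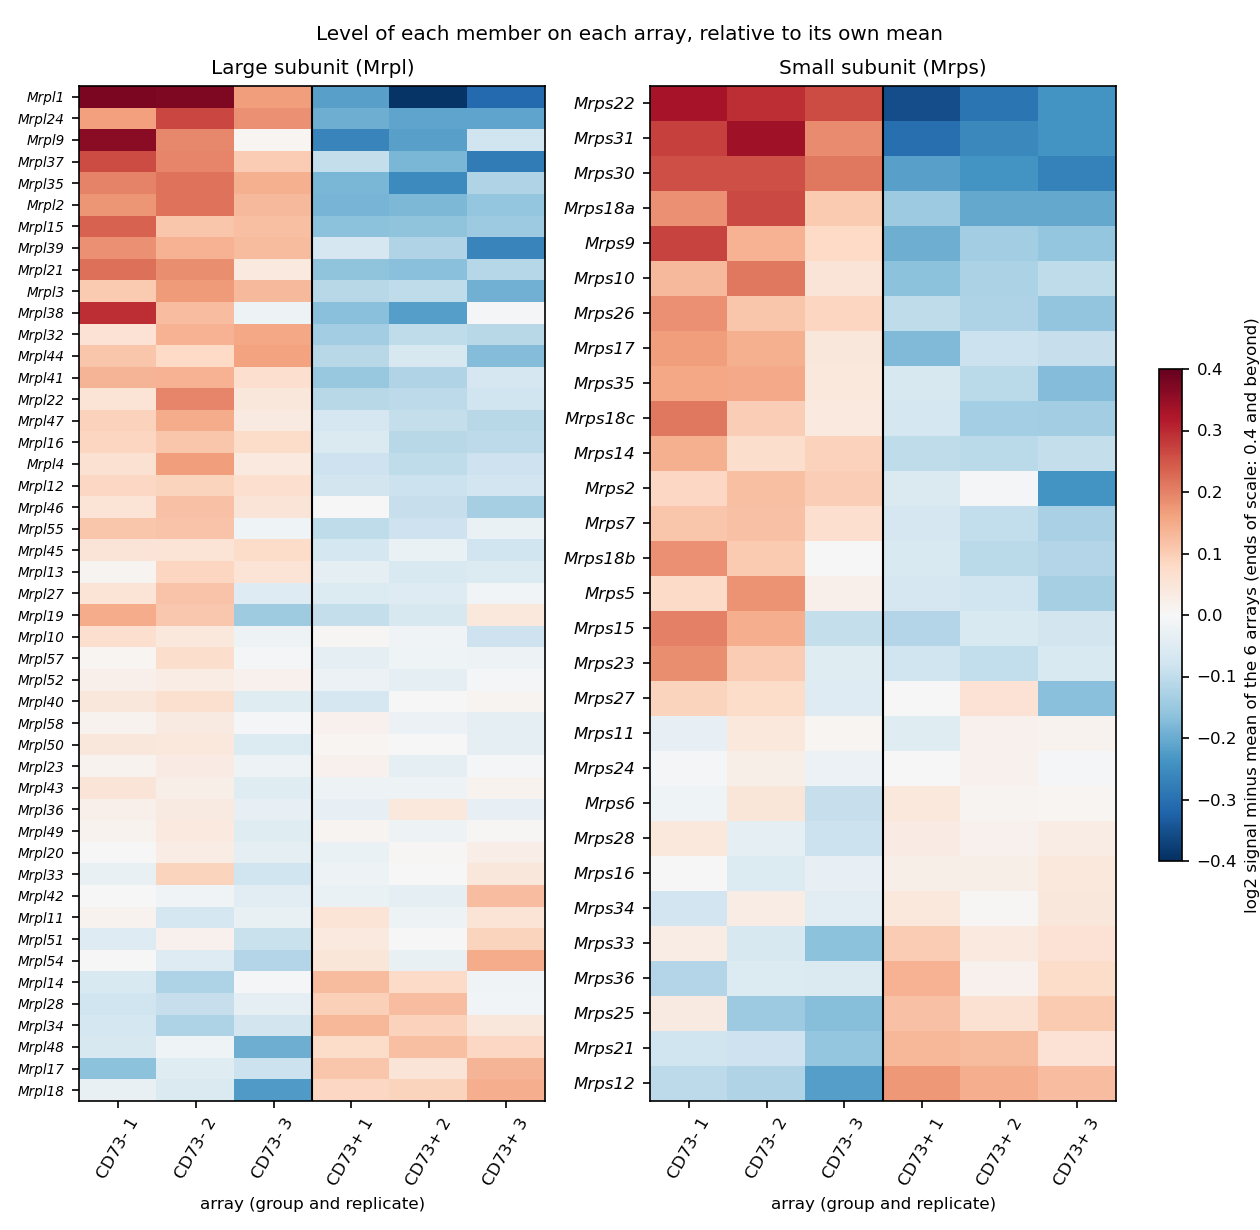
Log2 signal of each member on each of the 6 arrays minus the member's own mean over the arrays, with large subunit genes on the left, small subunit genes on the right, and genes ordered by their difference. Red is above and blue below the mean on the deposited scale; the upper genes are red on the CD73- arrays and blue on the CD73+ arrays, palest on CD73- replicate 3, and the lowest genes show the opposite, although scaling to the poly-A controls turns the lower genes to higher.

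Among large subunit genes, Mrpl1 had the largest difference. It codes for the homologue of the bacterial protein that forms the mobile stalk at the exit site of transfer RNA. Its signal was 7.76, 7.76 and 7.55 on the CD73- arrays and 7.17, 6.99 and 7.08 on the CD73+ arrays. The CD73+ arrays were all lower, at 65.4% of the CD73- level (difference -0.61, SE 0.0812, adjusted p = 0.00228, limma). Of its 3 probe sets the other two were dimmer and did not pass, with differences of 0.05 and 0.18, so that the lower signal of Mrpl1 rested on the brightest one.

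Mrpl24, whose bacterial homologue sits at the mouth of the exit tunnel for the new protein chain, was measured at 10.64, 10.75 and 10.66 on the CD73- arrays and at 10.28, 10.27 and 10.27 on the CD73+ arrays. The groups were far apart compared with their spread, and the CD73+ level was 75.2% of the CD73- level (difference -0.41, SE 0.0561, adjusted p = 0.00256, limma). Mrpl35, a homologue of a small bacterial large subunit protein, was measured at 10.39, 10.40 and 10.33 on the CD73- arrays and at 10.00, 9.93 and 10.06 on the CD73+ arrays. It fell to 77.3% (difference -0.37, SE 0.0605, adjusted p = 0.00521), while its dimmer probe sets had differences of 0.15 and 0.17 and did not pass.

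Mrpl37 belongs to the proteins found only in mitochondrial ribosomes. It was measured at 8.72, 8.66 and 8.56 on the CD73- arrays and at 8.36, 8.28 and 8.18 on the CD73+ arrays, which did not overlap (difference -0.37, SE 0.0729, adjusted p = 0.0113, limma). Mrpl9, homologous to the bacterial protein at the base of the exit site stalk, was measured at 9.94, 9.78 and 9.59 on the CD73- arrays and at 9.32, 9.37 and 9.50 on the CD73+ arrays. Here the nearest arrays of the groups were close together and the spread was wider (difference -0.37, SE 0.0995, adjusted p = 0.0376, limma). Without 1 of CD73+ replicates 1 and 2 or CD73- replicates 1 and 2 its adjusted p passed over the threshold, up to 0.126.

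The other 8 lower genes of the large subunit were Mrpl2 (-0.35) and Mrpl3 (-0.27), whose bacterial homologues reach toward the peptidyl transferase centre, Mrpl15 (-0.31), Mrpl21 (-0.30) and Mrpl32 (-0.23), also of bacterial descent, and the mitochondria-specific Mrpl39 (-0.30), Mrpl44 (-0.23) and Mrpl41 (-0.23). The large subunit gene with the largest positive difference, Mrpl18 of the central protuberance, was measured at 8.94, 8.91 and 8.74 on the CD73- arrays and at 9.05, 9.06 and 9.11 on the CD73+ arrays. The groups did not overlap, yet the difference of 0.21 (SE 0.0696) did not pass at an adjusted p of 0.0799 (limma).

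The smallest difference in the large subunit was that of Mrpl20, a protein of bacterial descent, measured at 9.97, 10.00 and 9.93 on the CD73- arrays and at 9.94, 9.97 and 9.99 on the CD73+ arrays (difference 0.0014, SE 0.0539). Mrpl49, a mitochondria-specific protein, was measured at 8.76, 8.79 and 8.70 against 8.76, 8.73 and 8.75 (difference -0.0024, SE 0.0548). In both genes the arrays of the groups were interspersed.

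**Figure D3:**
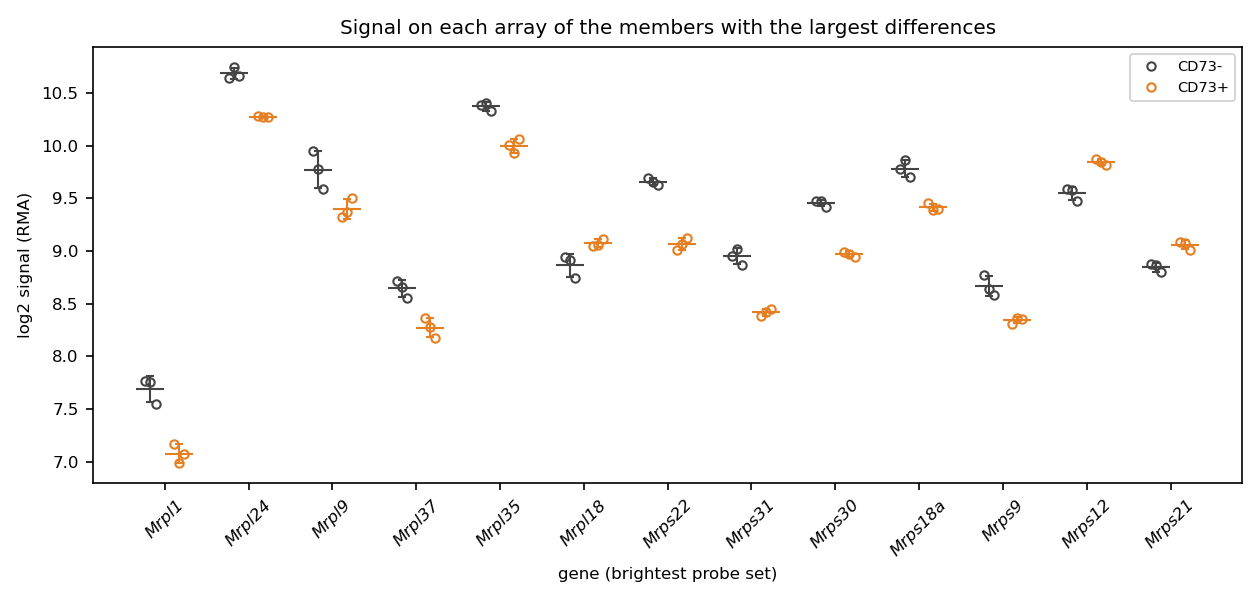
Log2 signal on each array (open circles) of the members with the largest falls and rises in each subunit, with the mean (horizontal line) and SD (vertical bar) of 3 CD73- arrays in dark grey and 3 CD73+ arrays in orange. Levels may be compared within a gene and not between genes; the groups do not overlap in any gene shown, Mrps12, Mrps21 and, without passing the test, Mrpl18 are higher in CD73+ AD-MSCs, and the others are lower on the deposited scale but turn to higher when scaled to the poly-A controls.

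In the small subunit the largest differences belonged to mitochondria-specific proteins. Mrps22 was measured at 9.69, 9.66 and 9.62 on the CD73- arrays and at 9.01, 9.07 and 9.12 on the CD73+ arrays. The groups stood apart by several times their spread, with a CD73+ level of 66.4% of the CD73- level (difference -0.59, SE 0.0583, adjusted p = 0.000722, limma). Mrps31 was measured at 8.96, 9.02 and 8.87 on the CD73- arrays and at 8.38, 8.42 and 8.45 on the CD73+ arrays. It fell to 69.1% without overlap (difference -0.53, SE 0.0615, adjusted p = 0.00132).

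Mrps30 and Mrps18a carry small subunit names but are placed in the large subunit by structures of the mammalian particle. Mrps30 was measured at 9.47, 9.47 and 9.42 on the CD73- arrays and at 8.995, 8.97 and 8.94 on the CD73+ arrays. Its groups did not overlap, with a difference of -0.48 (SE 0.0534, adjusted p = 0.00111, limma). Mrps18a was measured at 9.78, 9.86 and 9.70 on the CD73- arrays and at 9.45, 9.39 and 9.39 on the CD73+ arrays. It also fell without overlap (difference -0.37, SE 0.0627, adjusted p = 0.00625, limma). With both genes counted in the large subunit, and with Mrps36, which is not a ribosomal protein in structures, left out, 15 of 49 large subunit genes fell with a median of -0.10, and 10 of 26 small subunit genes fell and 2 rose with a median of -0.18.

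Mrps9, whose bacterial homologue reaches the transfer RNA in the decoding subunit, was measured at 8.78, 8.64 and 8.59 on the CD73- arrays and at 8.31, 8.37 and 8.35 on the CD73+ arrays. The CD73+ arrays were lower without overlap (difference -0.33, SE 0.0666, adjusted p = 0.0134, limma), although the adjusted p was 0.0582 without CD73+ replicate 1. The other 7 lower genes were Mrps10 (-0.26), Mrps17 (-0.24), Mrps18c (-0.23), Mrps14 (-0.20) and Mrps7 (-0.20), of bacterial descent, and the mitochondria-specific Mrps26 (-0.25) and Mrps35 (-0.23).

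Both genes that rose code for homologues of bacterial small subunit proteins. Mrps12, the counterpart of the bacterial protein that monitors codon pairing at the decoding centre, was measured at 9.59, 9.58 and 9.48 on the CD73- arrays and at 9.87, 9.84 and 9.82 on the CD73+ arrays. All CD73+ arrays were higher (difference 0.30, SE 0.0582, adjusted p = 0.0115, limma), with an adjusted p of 0.0535 without CD73+ replicate 1. Mrps21 was measured at 8.87, 8.87 and 8.80 on the CD73- arrays and at 9.08, 9.08 and 9.01 on the CD73+ arrays. Its difference of 0.21 (SE 0.0567, adjusted p = 0.0387, limma) no longer passed whichever of the 6 arrays was left out, at adjusted p-values of 0.0502 to 0.137, and the same held for the lower genes Mrpl44, Mrps14 and Mrps7. The smallest differences were those of Mrps24 (9.66, 9.69 and 9.64 on the CD73- arrays against 9.66, 9.68 and 9.66, difference 0.0045) and of Mrps11 (8.02, 8.10 and 8.06 against 8.01, 8.07 and 8.07, difference -0.012), with the arrays of both groups interspersed.

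By descent, 16 of 44 members with a bacterial homologue fell (36.4%) and 2 rose, with a median difference of -0.17. Of 29 mitochondria-specific members 9 fell (31.0%) and none rose, with a median of -0.073. Mrps18a, which fell, was counted with the bacterial homologues and Mrps18b, which did not pass, with the mitochondria-specific members. The counts by descent depend on such choices. The share of lower genes was 12.6% over all genes and 24.4% in the level range of the members. By position, 3 of 8 proteins around the exit tunnel (Mrpl24, Mrpl39 and Mrpl44) fell, while the 3 proteins of the factor-binding stalk, Mrpl10 (-0.06), Mrpl11 (0.06) and Mrpl12 (-0.16), and the 6 proteins of the central protuberance, from Mrpl38 (-0.27) to Mrpl18 (0.21), did not pass. Differences between these groups of proteins were not tested.

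The array held 156 probe sets for the 76 members, and 42 members had more than 1. Among the 106 probe sets at or above the level of 7.39, the lowest read for any member, 35 were lower and 2 higher in CD73+ AD-MSCs on the deposited scale, with a median difference of -0.14. Among the 50 dimmer probe sets 1 was lower and 3 higher, with a median of 0.028, where 9.11% of all probe sets were called lower and 9.79% higher. Lower calls were also more frequent among bright probe sets of the whole array, with 22.1% lower and 19.1% higher at or above that level and 4.34% and 6.37% below it. In Mrpl39 both probe sets fell, at -0.30 and -0.23, whereas in 13 other members with a lower call at least 1 further probe set did not pass.

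**Figure D4:**
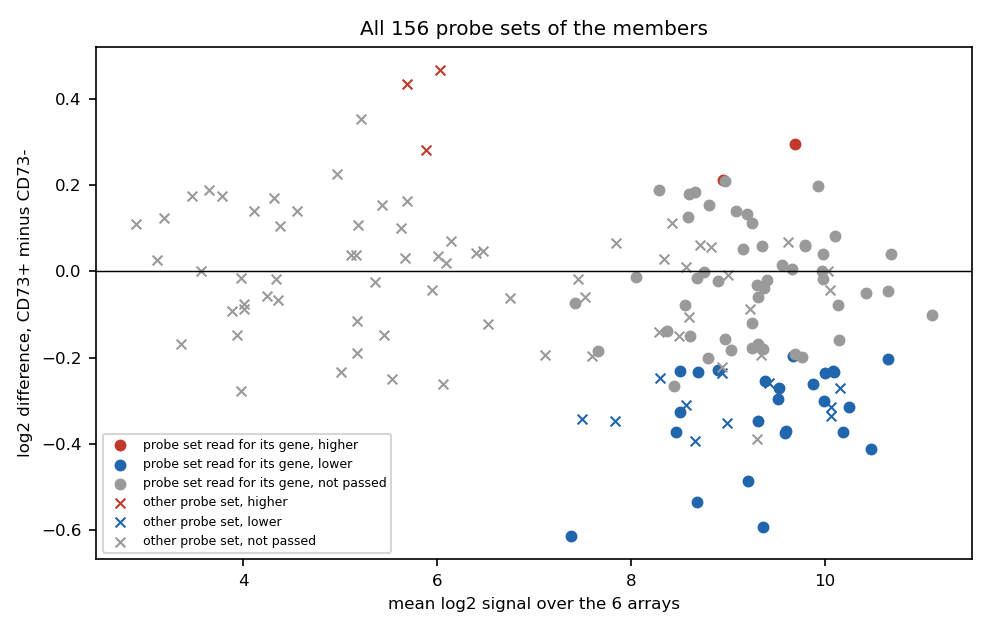
Log2 difference (CD73+ minus CD73- AD-MSCs, vertical axis) of all 156 probe sets of the members against their mean log2 signal over the 6 arrays (horizontal axis), with circles for the probe set read for its gene and crosses for the others, blue for lower, red for higher and grey for not passed. Lower calls on the deposited scale, which turn to higher when scaled to the poly-A controls, lie almost entirely at signals above 7.39, where 35 of 106 probe sets are lower.

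Besides Mrps5, described below, 3 members had a probe set that passed although the one read for the gene did not. For Mrpl13 a pair of dimmer probe sets fell (-0.34 and -0.31), while the brightest had a difference of -0.10. For Mrpl51 and Mrps25 a dimmer probe set rose, by 0.43 and 0.47. Mrps5, whose bacterial homologue lines the messenger RNA entry channel, was the member whose probe sets passed in opposite directions. Its brightest probe set was measured at 7.73, 7.83 and 7.68 on the CD73- arrays and at 7.59, 7.58 and 7.52 on the CD73+ arrays and did not pass (difference -0.19, adjusted p = 0.0865, limma). A second fell (7.66, 7.71 and 7.61 against 7.35, 7.29 and 7.32, difference -0.34), and a dimmer one rose (5.68, 5.72 and 5.84 against 5.95, 5.97 and 6.16, difference 0.28), so that no single direction can be given for Mrps5. Probe sets annotated to a member together with another gene were left out of the members. Those shared by Mrpl30 and Gm6238 (-0.15 and -0.18) and by Mrpl53 and Ccdc142 (0.13) did not pass.

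Mitochondrial translation needs further nuclear-encoded proteins beside the ribosomal ones. Of 66 such genes, 22 fell (33.3%, against 12.6% of all genes and 24.4% of those in the level range of the members) and none rose. Their median difference was -0.14 on the deposited scale. At an unadjusted p under 0.05 in limma 3 were higher and 31 lower, without a share over all genes at that threshold. The 66 genes had levels from 4.18 to 12.35, beyond the level range of the members. The count of lower genes was 10 without CD73+ replicate 1, 12 without CD73- replicate 2, 14 without CD73- replicate 1 and 16 to 22 without any of the other arrays. Of 5 genes listed as mitochondrial ribosomal proteins under other names only Ptcd3 passed (difference -0.25, SE 0.0628, adjusted p = 0.0291, limma). The 5 include Oxa1l, which is a membrane insertase and not a ribosomal protein.

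Of 15 translation factors 5 fell (33.3%), against 12.6% of all genes and 24.4% of those in the level range of the members. The largest differences were those of Mrrf, the ribosome recycling factor, and Mtrf1l, a release factor. Mrrf was measured at 8.70, 8.83 and 8.84 on the CD73- arrays and at 8.44, 8.43 and 8.30 on the CD73+ arrays (difference -0.39). Mtrf1l was measured at 8.84, 8.74 and 8.67 against 8.35, 8.36 and 8.38 (difference -0.38). The groups did not overlap in either gene, whereas the elongation factor Tufm (0.07) did not pass. Of 18 mitochondrial aminoacyl-tRNA synthetases, which charge transfer RNAs with amino acids, 5 fell (27.8%). The largest falls were those of Mars2 (-0.37) for methionine and Rars2 (-0.33) for arginine. Mars2 was dim, at 4.32, 4.46 and 4.30 on the CD73- arrays and at 4.09, 3.99 and 3.90 on the CD73+ arrays. The median level of all probe sets was 5.33.

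Of 28 factors that assemble the mitochondrial ribosome 11 fell (39.3%) and none rose, with a median of -0.18. Over all genes 12.6% were lower, and in the level range of the members 24.4%. Fastkd2, which binds the large subunit RNA, was measured at 8.61, 8.49 and 8.44 on the CD73- arrays and at 8.10, 8.13 and 7.999 on the CD73+ arrays (difference -0.44, adjusted p = 0.00509, limma). Ddx28, a helicase of large subunit assembly, was measured at 8.07, 8.14 and 8.10 against 7.73, 7.72 and 7.65 (difference -0.41, adjusted p = 0.00264, limma). Neither gene showed overlap between the groups.

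Of 27 genes for transcription of mitochondrial DNA and upkeep of its RNA, 15 fell (55.6%) and none rose, with a median of -0.24. At an unadjusted p under 0.05 in limma, 17 were lower and 1 higher, without a share over all genes at that threshold. The share of genes lower at the adjusted threshold was 12.6% over all genes and 24.4% in the level range of the members. The largest differences were those of Trmt10c, a subunit of mitochondrial RNase P (9.03, 9.01 and 8.92 on the CD73- arrays against 8.31, 8.39 and 8.32, difference -0.64, adjusted p = 0.000565, limma), and of Mtpap, the mitochondrial poly-A polymerase (10.08, 9.89 and 9.88 against 9.29, 9.35 and 9.28, difference -0.64, adjusted p = 0.0012, limma). The count of lower genes was 8 without CD73+ replicate 1 or 2, 9 without CD73- replicate 1 or 2, and 10 or 12 without either of the remaining arrays. Tfam, the packaging and transcription factor of mitochondrial DNA, also fell (-0.37). No transcript of the mitochondrial genome itself was measured under a name used here.

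**Figure D5:**
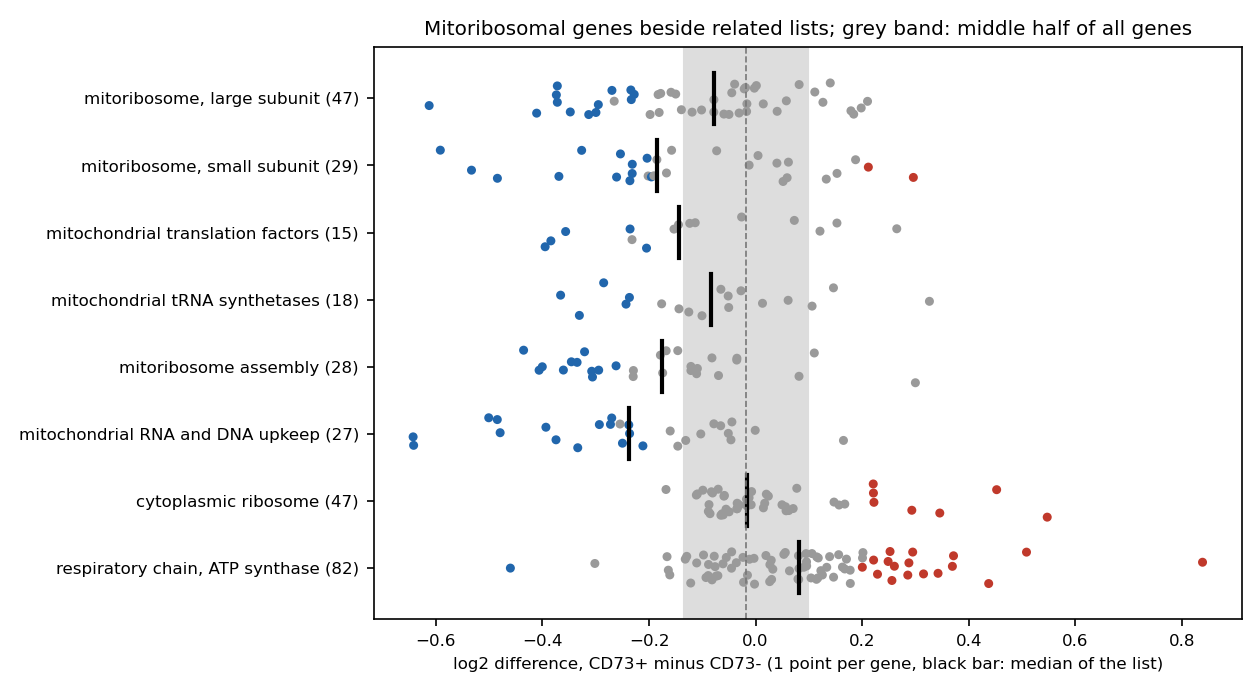
Log2 difference of every measured gene of the large and small subunit and of 6 related lists (1 point per gene, CD73+ minus CD73- AD-MSCs), a short black line marking each list's median, blue for lower, red for higher and grey for not passed, a dashed line at the median of all genes (-0.018) and a grey band between their quartiles (-0.13 and 0.10). Medians of the subunits are -0.078 and -0.19 and that of mitochondrial transcription and RNA maintenance is -0.24. Red points lie in the small subunit (Mrps12 and Mrps21), the cytoplasmic ribosome and the respiratory chain. Scaling to the poly-A controls would move every point up by 0.93.

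The genes of the cytoplasmic ribosome and of the respiratory chain gave other counts, where 10.1% of all genes and 17.4% of those in the level range of the members were higher. That range (7.39 to 11.11) does not match the cytoplasmic ribosome, whose median level was 13.22, while that of the respiratory chain was 10.59. Of 47 cytoplasmic ribosomal protein genes 7 rose (14.9%) and none fell by limma, also at an unadjusted p under 0.05, and the median was -0.016. By the methods' one-way ANOVA 1 of them fell, where 2016 of 18193 genes were lower. In limma with a variance trend 6 of them fell, where 3062 genes were lower. Rpl37a was measured at 12.71, 12.70 and 12.67 on the CD73- arrays and at 13.21, 13.21 and 13.30 on the CD73+ arrays (difference 0.55), and Rpl14 also rose (0.45). Of 82 nuclear-encoded subunits of the respiratory chain and ATP synthase 17 rose (20.7%) and 1 fell, with a median of 0.081. With the variance trend 32 of these subunits rose and 10 fell, where 2426 of 18193 genes were higher and 3062 lower. Uqcrh, the hinge protein of complex III, was measured at 9.71, 9.65 and 9.60 on the CD73- arrays and at 10.48, 10.48 and 10.52 on the CD73+ arrays (difference 0.84, adjusted p = 0.000211, limma). Cox6b2, the testis form of a cytochrome c oxidase subunit, rose (0.51), and Cox6a2, the striated muscle form of another, fell (-0.46). The difference between these lists and the mitochondrial ribosomal proteins was not tested, and without 1 array the counts of higher genes were 4 or 5 in the cytoplasmic ribosome and 7 to 13 in the respiratory chain.

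Of 14 regulators of nuclear genes for mitochondria 5 fell (35.7%) and 2 rose (14.3%), where 12.6% of all genes were lower and 10.1% higher. Among genes in the level range of the members 24.4% were lower and 17.4% higher. The subunits of GABP, one of the ETS family factors that bind CGGAAG, differed in direction, and their part in the differences of the members was not tested. Gabpb1, the activating subunit, was measured at 8.15, 8.23 and 8.01 on the CD73- arrays and at 7.46, 7.54 and 7.24 on the CD73+ arrays (difference -0.71, adjusted p = 0.00244, limma). Gabpa, the DNA-binding subunit, was measured at 9.25, 9.20 and 9.22 against 9.47, 9.50 and 9.43 (difference 0.25, adjusted p = 0.0185, limma), but the mean over its probe sets gave -0.061. Both Myc (-0.50) and its partner Max (-0.51) fell, as did Yy1 (-0.21) and the coactivator Pprc1 (-0.28), while the coactivator Hcfc1 rose (0.27). Nrf1 had a difference of -0.20 and did not pass (adjusted p = 0.0838, limma).

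Some members share a promoter region with a gene transcribed the other way, and 25 members had the start of such a gene within 1000 bases. The neighbours were measured in all 25 cases, and 6 of them fell, 2 rose and 17 did not pass, where 12.6% of all genes and 24.4% of those in the level range of the members were lower. Of the 8 lower members with such a neighbour, 4 stood beside a gene that also fell, Mrpl21 with Ighmbp2 (-0.28), Mrpl41 with Pnpla7 (-0.66), Mrps18c with Helq (-0.35) and Mrps7 with Gga3 (-0.37). Mrpl2 fell beside Klc4, which rose (0.27). Mrps12, one of the genes that rose, stood head to head with Sars2, the mitochondrial seryl-tRNA synthetase, whose difference of 0.33 did not pass (adjusted p = 0.107, limma). Mrpl46 and Mrps11 are such a pair within the members, and neither passed (-0.15 and -0.012).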

How the data were processed

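Total RNA of 3 CD73+ and 3 CD73- AD-MSC samples was labelled with biotin and hybridised to Affymetrix whole-genome mouse arrays. The authors deposited log2 values, made with RMA per the submitters' processing notes, whose version is not given in the sources used here. RMA makes the arrays' distributions nearly alike, removes a shift shared by most transcripts and tends to compress ratios. After 64 control probe sets were left out, 45037 probe sets were tested with limma 3.58.1 (lmFit and eBayes, R 4.3.3) and p-values were adjusted over all of them (Benjamini-Hochberg, threshold 0.05). The study's text names no test for single probe sets, and its general one-way ANOVA was an alternative. The platform annotation gave 34945 probe sets 1 symbol and 932 several, and 9160 are unnamed here. A gene was read from its brightest probe set, and all 76 members matched RefSeq by gene identifier. The members and the lists of related genes were chosen with earlier results of these data known.

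Named were all members past the threshold, with values by array for up to 5 of the largest falls and rises and the 2 smallest differences in each subunit, for members whose probe sets opposed each other, and up to 2 genes each way of every related list. Tufm, Tfam, Myc, Yy1, Pprc1, Nrf1, the neighbouring genes and the members with only a dimmer probe set past the threshold were named after their values were seen. Alternatives were other normalizations, scaling to the poly-A controls, filters, variance models, other probe set choices, a stricter threshold, a replicate block and leaving out each array. Promoters were searched with Python 3.11.15 as exact letters. Whether replicate numbers pair the arrays is not given in the labels.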

Additional observations from a re-analysis of the deposited data

Results flagged for a closer look

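The probe set annotated to both Nme3, a nucleoside diphosphate kinase, and Mrps34 was outside the members because it names more than 1 gene. It was measured at 5.62, 5.56 and 5.26 on the CD73- arrays and at 5.77, 5.83 and 5.88 on the CD73+ arrays, without overlap, and its difference of 0.35 passed (SE 0.0977, adjusted p = 0.0465, limma). The probe set annotated to Mrps34 alone gave a difference of 0.06 and did not pass, and which of the genes the shared probe set reads was not tested.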

How the results depend on the processing

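On the deposited scale 13 large subunit genes were lower and 0 higher, 12 small subunit genes were lower and 2 higher, 22 genes of mitochondrial translation were lower and 0 higher, and 2301 of all genes were lower and 1840 higher. Without 1 array, large subunit genes lower ranged from 6 to 11 and small subunit genes lower from 4 to 12, small subunit genes higher from 0 to 2, mitochondrial translation genes lower from 10 to 22 and higher from 0 to 1, all genes higher from 1170 to 1631 and lower from 1410 to 2142, and the median difference from -0.11 to -0.054 in the large and from -0.21 to -0.15 in the small subunit. These fits had fewer arrays.

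Whether equal replicate numbers pair the arrays is not given in the labels. Correlations of deviations from the group means were -0.138, 0.0276 and -0.136 for equal numbers. For unequal numbers they ran from -0.0631 to 0.171, and with 3 arrays per group such values cannot settle the pairing. With a replicate block 7 large subunit genes and 5 small subunit genes were lower and 1 small subunit gene was higher, 14 mitochondrial translation genes were lower, and 1477 of all genes were lower. At an adjusted p under 0.01, 5 large subunit and 4 small subunit genes were lower and 0 small subunit genes higher, 9 mitochondrial translation genes were lower, and 1035 of all genes were higher and 1161 lower.

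Large subunit genes higher numbered 3 after quantile normalization, 4 after cyclic loess, 4 among probe sets above the median level, 5 with a variance trend, 1 with array weights, 1 by the methods' one-way ANOVA, 1 with the mean of a gene's probe sets and 1 with unsuffixed probe sets (those whose names carry no _s, _x or _a). Large subunit genes lower numbered 21 above the median level, 22 with the trend and 6 of 42 with the unsuffixed probe sets. Lower calls over all genes were 2980 of 11128, 3062 of 18193 and 1909 of 16591 in these settings. Higher calls over all genes were 2306, 2426 and 1666 in the same order. With array weights, the one-way ANOVA and the mean of probe sets, 2212, 1657 and 2089 of all genes were higher. Small subunit genes higher numbered 4 above the median level, 4 with the trend, 1 after median centring and 1 of 20 with the unsuffixed probe sets. Mitochondrial translation genes higher numbered 1 after quantile normalization, 1 of 64 above the median level, 2 with the trend and 2 with array weights. They numbered 1 with the mean of probe sets and 1 of 62 with the unsuffixed ones. At the unadjusted threshold of the methods' one-way ANOVA, 23 large and 15 small subunit genes were lower and 5 of each were higher, against 16 and 9 lower after adjustment. After adjustment 2016 of 18193 genes were lower by that ANOVA, and no count over all genes is given without adjustment. The large subunit median was -0.11 after median centring, -0.11 with array weights and -0.041 with the unsuffixed probe sets, and the small subunit median was -0.087 with the mean of probe sets. With the unsuffixed probe sets Mrpl1 (0.048), Mrpl15 (0.019) and Mrpl35 (0.15) were on the other side of 0, none of them past the threshold, and with the mean of probe sets so was Gabpa (-0.061). The cause was not tested.

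Scaling to the poly-A controls moved every probe set by the same amount, by construction. All 47 large subunit, 29 small subunit and 66 mitochondrial translation genes were then higher and 0 lower in each, with medians of 0.85 and 0.74 in the subunits, and 18048 of all genes were higher and 19 lower, with a median of 0.91. The differences turned to 0.31 in Mrpl1, 0.58 in Mrpl2, 0.66 in Mrpl3, 0.55 in Mrpl9, Mrpl35 and Mrpl37, 0.61 in Mrpl15, 0.63 in Mrpl21 and Mrpl39, 0.52 in Mrpl24, 0.69 in Mrpl32 and Mrpl44, 0.70 in Mrpl41 and 0.92 in Mrpl49. In the small subunit they turned to 0.73 in Mrps7, 0.60 in Mrps9, 0.67 in Mrps10 and Mrps26, 0.91 in Mrps11, 0.72 in Mrps14, 0.69 in Mrps17 and Mrps35, 0.56 in Mrps18a, 0.70 in Mrps18c, 0.33 in Mrps22, 0.44 in Mrps30, 0.39 in Mrps31 and 0.74 in Mrps5. In related genes they turned to 0.67 in Ptcd3, 0.53 in Mrrf, 0.54 in Mtrf1l, 0.56 in Mars2, 0.60 in Rars2, 0.49 in Fastkd2, 0.52 in Ddx28, 0.28 in Trmt10c and Mtpap, 0.21 in Gabpb1, 0.42 in Max and 0.47 in Cox6a2. The cause of this shift was not tested.

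The 6 arrays limit what differences can be called, and RMA tends to compress small ones. The ratio of 3' over 5' probe sets, which rises with RNA degradation, was 0.084 ± 0.014 (log2, SD over 3 arrays) for beta-actin in CD73+ and 0.19 ± 0.028 in CD73- AD-MSCs, and -0.27 ± 0.035 against -0.30 ± 0.023 for Gapdh, and its part in the results was not tested.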
